A study of Rattus norvegicus with 6 samples.

Results

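The genes described here are 9 effectors of resistance to oxidative and metal stress, measured in rat primary astrocytes treated with β-hydroxybutyrate (BHB) and in control astrocytes. They comprise the forkhead transcription factors Foxo1, Foxo3 and Foxo4, the metallothioneins Mt2A and Mt3, the superoxide dismutases Sod1, Sod2 and Sod3, and the catalase gene Cat. They were taken by symbol, as genes tied to the inhibition of histone deacetylases by BHB, and all 9 were found among the 22608 symbols of the table. The groups were 3 libraries of astrocytes treated with BHB, at 2 mM by the column names, and 3 libraries of control astrocytes, all from poly(A) RNA of rat brain cells. The strain, the age of the animals, the form of BHB, the length of treatment and what the controls received were each not given in the sources used here. Whether libraries of the same group stem from different animals or cultures is likewise unknown, so each p-value refers to the spread between these libraries, which may be technical.

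BHB is made by the liver from fatty acids when glucose is scarce, and it serves brain cells as a fuel. It also inhibits class I histone deacetylases, and in mouse kidney this was linked to higher expression of Foxo3 and of the metallothionein gene Mt2. FOXO factors are held in the cytoplasm by insulin and AKT signalling, and in the nucleus they switch on genes of stress resistance, among them Sod2 and Cat. Superoxide dismutases turn superoxide into hydrogen peroxide, catalase breaks peroxide down in peroxisomes, and metallothioneins are small cysteine-rich proteins that bind zinc and copper and scavenge radicals.

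None of the 9 genes differed between BHB and control astrocytes by the test across all genes. The differences were small, with log2 fold changes (BHB over control) of -0.14 for Foxo3 to 0.15 for Mt3 and a median of 0.01. Of the 9 genes, 6 lay above 0 and 3 below. Mt3 was higher in every BHB library than in any control, and Cat was lower in every BHB library than in any control, both without passing the test. The test was limma on log2(FPKM + 1), where FPKM is fragments scaled to transcript length and to library size, with p-values adjusted by the Benjamini-Hochberg method and a threshold of 0.05. All 9 genes reached the minimum of 1 FPKM in at least 3 of the 6 libraries.

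Of the 12373 genes that reached the same minimum, 7 passed, or 0.0566%, against 0 of the 9. At an unadjusted p under 0.05 there were 692, or 5.59%, against 1 of the 9, Mt3. Groups that did not overlap were seen in 1347, or 10.9%, against 2 of the 9, Mt3 and Cat. With 9 genes, counts of 0 to 2 cannot be set apart from these shares. The median log2 fold change over all genes tested was 0.00 (SD 0.121), with 51.5% of genes above 0.

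**Figure D1:**
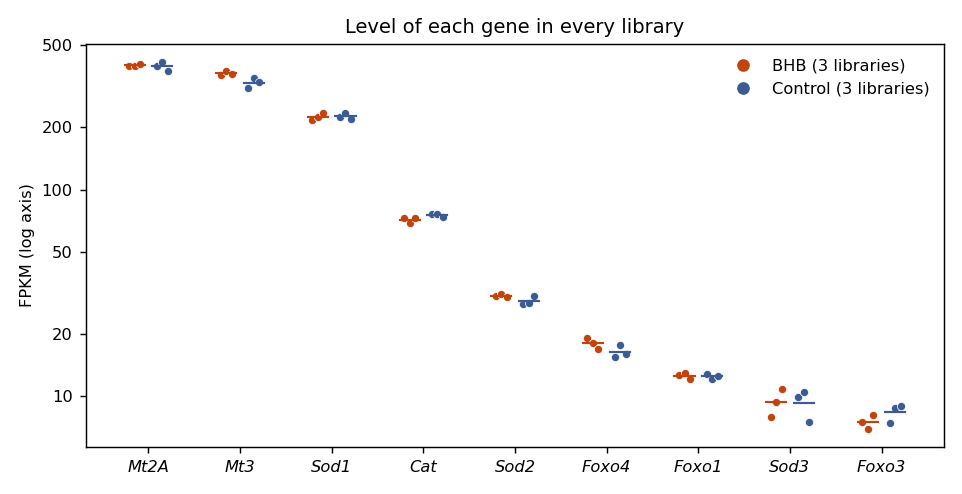
Level of the 9 genes in FPKM on a log axis, in order of their mean over the 6 libraries. Points are single libraries, with BHB to the left of control for each gene, and short lines are group means. The levels run from means of 396 FPKM for Mt2A to 8.0 FPKM for Foxo3, and the values of Sod3 and Foxo3 overlap.

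The levels of the 9 genes spanned a wide range. FPKM is scaled to length, so the genes are set side by side here. How transcripts were combined to genes and how reads shared by near copies were counted is not known. The order of genes with close levels is therefore uncertain. Over the 6 libraries Mt2A was the most abundant, at 375.4 to 412 FPKM, followed by Mt3 at 309 to 375 FPKM and Sod1 at 218 to 235 FPKM. Cat ran from 68.9 to 76.6 FPKM and Sod2 from 27.9 to 31.1 FPKM. Foxo4, at 15.4 to 19.2 FPKM, stood above Foxo1, at 12.1 to 12.9 FPKM. Neighbours in this order had ranges that did not overlap, except Sod3, at 7.54 to 10.9 FPKM, and Foxo3, at 6.99 to 9.03 FPKM, which cannot be ordered by these libraries. Mt2A and Mt3 came close, since the highest value of Mt3 was 375.0 FPKM and the lowest of Mt2A 375.4 FPKM.

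**Figure D2:**
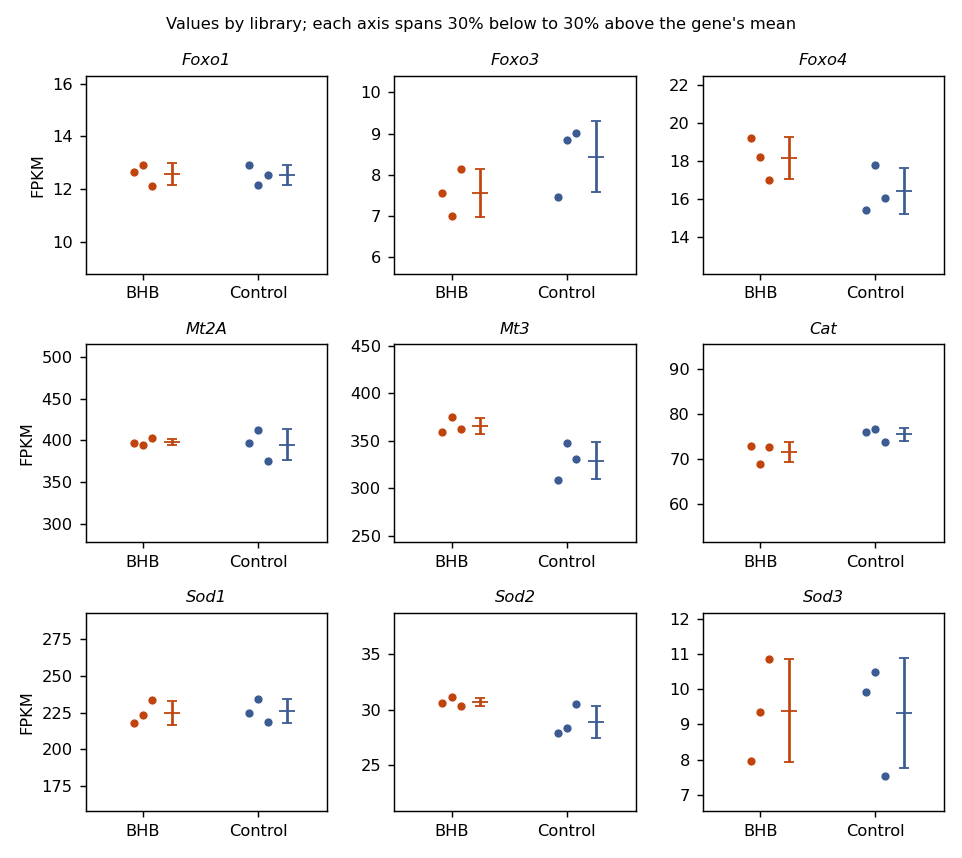
FPKM of each of the 9 genes in the BHB (left) and control (right) libraries. Points are single libraries, and the bar beside them is the mean ± SD (n = 3). Each vertical axis spans 30% below to 30% above the gene's mean, so that relative changes have the same height. The groups are separate for Mt3 and Cat and overlap for the others.

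Among the FOXO factors, Foxo3 is the one that work in mouse kidney tied to BHB. It stood at 7.55, 6.99 and 8.15 FPKM in the BHB libraries, against 7.46, 8.84 and 9.03 FPKM in the control libraries. The groups overlapped, since control 1 lay within the BHB values, and the means were 7.56 ± 0.579 FPKM with BHB and 8.44 ± 0.854 FPKM in controls (SD, n = 3 each). The log2 fold change of -0.14 had a 95% interval of -0.34 to 0.06 (adjusted p in limma = 0.890), so the interval ends at a 4.12% higher level on the FPKM + 1 scale. The log2 fold change was -0.22 without control 1 and -0.09 without BHB 2. The exact two-sided permutation p was 0.3, where 0.1 is the smallest that 3 against 3 allows. In a bulk sample, fewer cells that express a gene and less RNA per cell cannot be told apart.

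Foxo4 was the most abundant of the 3 FOXO factors. It stood at 19.2, 18.2 and 17.0 FPKM in the BHB libraries, against 15.4, 17.8 and 16.0 FPKM in the control libraries. Only control 2 reached into the range of the BHB values. The means were 18.1 ± 1.10 FPKM with BHB and 16.4 ± 1.22 FPKM in controls (SD, n = 3 each), which gives a log2 fold change of 0.14 (95% limits -0.02 and 0.30) that did not pass (adjusted p in limma = 0.890, exact permutation p = 0.2). Foxo1, which in liver drives genes of glucose production, stood at 12.7, 12.9 and 12.1 FPKM with BHB, against 12.9, 12.1 and 12.5 FPKM in controls. These values were interleaved, and the log2 fold change was 0.00 (95% limits -0.12 and 0.13, adjusted p in limma = 0.997), and its sign turned under other scalings.

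The sum over the 3 FOXO factors was 38.2 ± 1.09 FPKM with BHB and 37.4 ± 1.5 FPKM in controls (SD, n = 3 each), with overlapping ranges. Foxo4 made up 47.4 ± 1.59% of this sum with BHB and 43.9 ± 1.75% in controls. Foxo3 made up 19.8 ± 1.86% with BHB and 22.6 ± 1.59% in controls, and Foxo1 held 32.8 ± 0.927% with BHB and 33.6 ± 2.36% in controls. The ranges of each share overlapped between the groups. Foxo6, a brain-enriched relative outside the 9 genes, was low, at 2.28 ± 0.400 FPKM with BHB and 2.03 ± 0.509 FPKM in controls (SD, n = 3 each), and its log2 fold change was 0.12 (95% limits -0.20 and 0.45, adjusted p in limma = 0.921). Without 1 library this ran from -0.01 (control 1 left out) to 0.23 (control 3 left out).

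Metallothionein genes lie side by side in the rat genome, in the order Mt1, Mt2A, Mt3 and Mt4 of the RefSeq table, and are switched on through metal response elements, short motifs bound by the zinc sensor MTF1. The 250 bases before the transcript start are shown for Mt2A, Mt3 and Mt1 because the first 2 are the most abundant of the genes described and differ in how their BHB and control values lie, and Mt1 is the close relative of Mt2A. Sequences are from RefSeq (GRCr8), written 5′ to 3′ on the gene's strand. Capitals mark the element core, searched as TGCACNC or TGCGCNC on both strands and shown as its reverse complement where it lies on the opposite strand, and no core overlapped another.
Mt2A, chr19:10838709-10838958, minus strand: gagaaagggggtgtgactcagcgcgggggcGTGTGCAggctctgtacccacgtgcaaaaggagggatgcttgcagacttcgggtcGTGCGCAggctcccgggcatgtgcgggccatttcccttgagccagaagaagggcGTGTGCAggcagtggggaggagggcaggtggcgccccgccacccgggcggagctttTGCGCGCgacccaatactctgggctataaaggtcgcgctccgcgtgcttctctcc
Mt3, chr19:10856081-10856330, minus strand: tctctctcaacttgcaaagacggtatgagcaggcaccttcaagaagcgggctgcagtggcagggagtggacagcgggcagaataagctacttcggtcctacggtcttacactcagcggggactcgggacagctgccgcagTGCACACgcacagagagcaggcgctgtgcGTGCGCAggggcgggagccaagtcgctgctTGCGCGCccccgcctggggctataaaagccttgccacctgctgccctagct
Mt1, chr19:10832976-10833225, minus strand: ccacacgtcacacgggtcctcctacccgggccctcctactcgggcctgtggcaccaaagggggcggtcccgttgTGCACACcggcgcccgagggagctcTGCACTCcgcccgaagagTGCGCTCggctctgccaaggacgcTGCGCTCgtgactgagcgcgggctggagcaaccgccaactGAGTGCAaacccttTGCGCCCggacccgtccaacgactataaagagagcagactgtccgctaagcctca

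These windows held 4 cores for Mt2A, 3 for Mt3 and 6 for Mt1. Of 27457 RefSeq windows of the same length, 1 for each gene listed, 21.2% held at least 1 core, 1.25% at least 3, 0.277% at least 4 and 0.0219% at least 6. In Mt2A the core nearest to the start lies on the gene's strand 49 to 55 bases before it, and the other 3, at 105 to 220 bases, lie on the opposite strand. Mt3 carries its 3 cores at 45 to 110 bases. The letters alone do not show that MTF1 binds there.

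**Figure D3:**
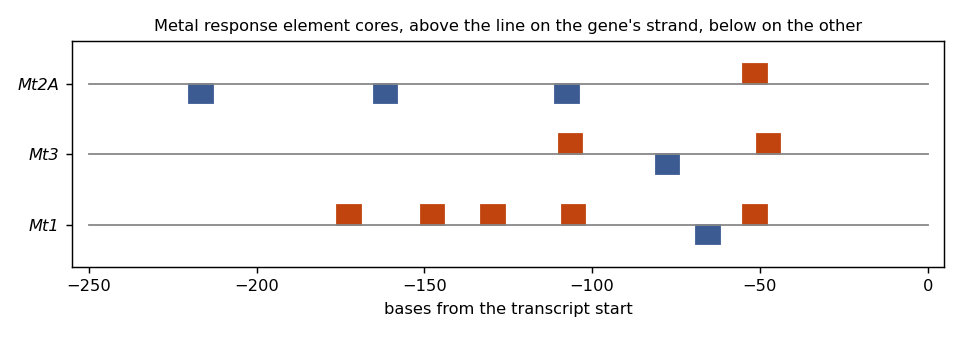
Position of the metal response element cores in the 250 bases before the transcript start of Mt2A, Mt3 and Mt1, in bases from the start. Boxes above a line lie on the gene's strand and boxes under it on the opposite strand. Mt2A has 4 cores, Mt3 has 3 and Mt1 has 6.

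Mt2A, an inducible metallothionein and the other gene tied to BHB in mouse kidney (as Mt2), had overlapping values. It stood at 397, 395 and 403 FPKM in the BHB libraries, against 397, 412 and 375.4 FPKM in the control libraries. The BHB values lay inside the span of the controls, and their spread was smaller, with means of 398 ± 4.11 FPKM with BHB and 395 ± 18.5 FPKM in controls (SD, n = 3 each). The log2 fold change was 0.01 with a 95% interval of -0.09 to 0.11 (adjusted p in limma = 0.978), from 5.96% lower to 8.21% higher on the FPKM + 1 scale. The sign of Mt2A is not settled by these data, since it was -0.05 with quantile normalization and -0.00437 with libraries scaled to equal sums.

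Mt3, the metallothionein enriched in brain that was first described as a growth inhibitory factor for neurons, had the largest log2 fold change of the 9 genes. It stood at 359, 375 and 363 FPKM in the BHB libraries, against 309, 348 and 331 FPKM in the control libraries. Every BHB library lay above every control, with means of 366 ± 8.34 FPKM with BHB and 329 ± 19.3 FPKM in controls (SD, n = 3 each) and a ratio of 1.11. The log2 fold change of 0.15 (SE 0.0501) had a 95% interval of 0.04 to 0.27, an unadjusted p of 0.0154 and an adjusted p of 0.881 in limma, so it did not pass. The exact permutation p was 0.1, the smallest possible. The unadjusted p was above 0.05 without BHB 2 and without control 1.

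Within libraries, Mt2A over Mt3 was a ratio of 1.09 ± 0.0318 with BHB and 1.2 ± 0.0766 in controls (SD, n = 3 each), a measure chosen after the values were seen. The ratios ran from 1.05 to 1.11 with BHB and from 1.13 to 1.29 in controls, without overlap (exact permutation p = 0.1, the smallest possible). This ratio does not depend on the scaling of a library. Since Mt2A hardly differed between the groups, the ratio largely restates the separation of Mt3 and is not a separate result. The sum of both genes was 764 ± 7.10 FPKM with BHB and 724 ± 30.9 FPKM in controls, and its ranges overlapped.

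Mt1, which encodes the other widely expressed metallothionein, stood at 60.9, 59.9 and 70.0 FPKM in the BHB libraries, against 69.0, 67.7 and 57.3 FPKM in the control libraries. The values were interleaved (log2 fold change -0.02, 95% limits -0.22 and 0.17, adjusted p in limma = 0.980). How reads shared by Mt1, Mt2A and near copies were counted was likewise not given in the sources used here, so their split is uncertain. Mt1m, which RefSeq lists as a pseudogene, stood at 3.06, 5.20 and 3.04 FPKM with BHB and 3.87, 2.30 and 3.50 FPKM in controls, and was named after its values were seen. Mt4, next to Mt3 on the chromosome and known from squamous epithelium, was listed at 0 in all 6 libraries. The nearest flanking genes in the table, Nup93 and Bbs2, had log2 fold changes of 0.00 and 0.03 (adjusted p in limma, 0.998 and 0.964).

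Superoxide dismutases differ by compartment, with the copper and zinc enzyme of Sod1 in the cytosol, the manganese enzyme of Sod2 in mitochondria and the secreted enzyme of Sod3 outside the cell. Sod1 made up 84.9 ± 0.194% of their summed FPKM with BHB and 85.5 ± 0.330% in controls (SD, n = 3 each). This share ran from 84.6% to 85.0% with BHB and from 85.2% to 85.8% in controls, without overlap, a share chosen to be named after its values were seen. Sod1 itself stood at 218, 223 and 234 FPKM with BHB, against 225, 235 and 218 FPKM in controls. Its values were interleaved, with a log2 fold change of -0.01 (95% limits -0.11 and 0.10, adjusted p in limma = 0.989).

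Sod2, a target of both FOXO3 and NF-kB in other cells, stood at 30.6, 31.1 and 30.4 FPKM in the BHB libraries, against 27.9, 28.3 and 30.5 FPKM in the control libraries. Control 3 lay within the BHB values and the other 2 controls lay below them. The means were 30.7 ± 0.386 FPKM with BHB and 28.9 ± 1.42 FPKM in controls (SD, n = 3 each), which gives a log2 fold change of 0.09 (95% limits -0.03 and 0.20) that did not pass (adjusted p in limma = 0.890, exact permutation p = 0.2).

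Sod3 was the least precisely measured of the 9 genes, with a residual SD of 0.216 on the log2 scale, against a median of 0.0866 over all genes tested. It stood at 7.95, 9.35 and 10.9 FPKM with BHB, against 9.92, 10.5 and 7.54 FPKM in controls. The groups overlapped widely, and the 95% interval of -0.29 to 0.32 around a log2 fold change of 0.01 (adjusted p in limma = 0.993) leaves changes of up to 24.8% unresolved. Its sign turned without control 3, without BHB 3 and with libraries scaled to equal sums. The deposited values of Foxo4 and Sod3 have more than 6 decimals and those of the other 7 genes have 6, and how transcripts were combined to genes is not known.

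Cat, the catalase gene, stood at 72.8, 68.9 and 72.7 FPKM in the BHB libraries, against 75.9, 76.6 and 73.8 FPKM in the control libraries. Every BHB library lay below every control, by a small margin at the near ends. The means were 71.4 ± 2.21 FPKM with BHB and 75.4 ± 1.47 FPKM in controls (SD, n = 3 each), a ratio of 0.948. The log2 fold change of -0.08 (SE 0.0426) had a 95% interval of -0.17 to 0.02 and did not pass (adjusted p in limma = 0.890, unadjusted p = 0.108). The exact permutation p was 0.1, the smallest possible.

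**Figure D4:**
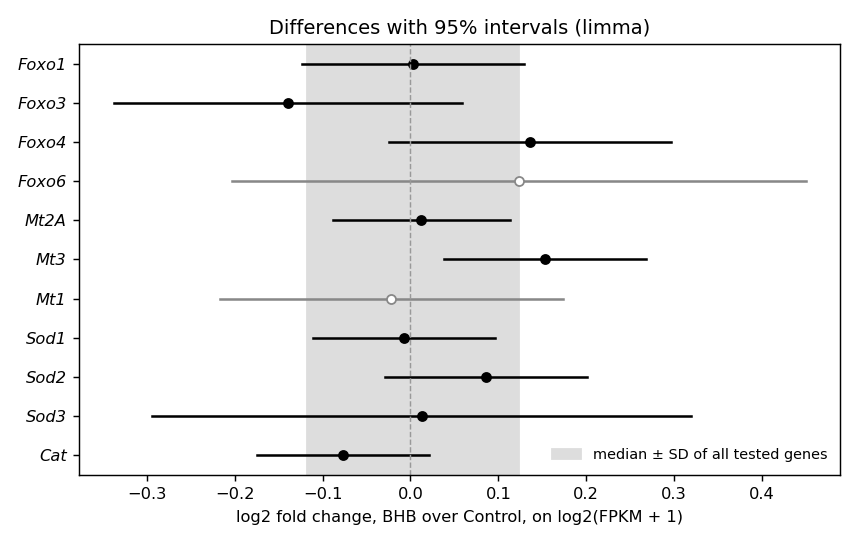
Log2 fold change of BHB over control on log2(FPKM + 1), with 95% intervals from limma, for the 9 genes (filled) and for Foxo6 and Mt1 (open, grey). The grey band is the median ± SD of the log2 fold changes of all genes tested. The interval of Mt3, 0.04 to 0.27, lies above 0 and the others include 0.

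The 7 of the 9 genes that the RefSeq promoter table held (Foxo3 and Sod3 were not matched) were searched for the forkhead core TGTTTAC on both strands of the same 250 bases. It was found in 0 of the 7 and in 3.25% of all windows. The antioxidant response core TGACNNNGC was found in 3 of the 7 (Foxo1, Mt2A and Sod2) and in 10.2% of all windows. These counts describe the letters of short windows only.

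For scale, the glutamate transporter gene Slc1a3, one of the 7 genes that passed, was 2.25-fold higher, at 455 ± 11.6 FPKM with BHB and 203 ± 5.0 FPKM in controls (SD, n = 3 each; adjusted p in limma = 1.64e-05). The 95% intervals of the 9 genes reached from 0.0978 (Cat) to 0.307 (Sod3) to either side on the log2 scale.

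Targets of FOXO factors in other tissues showed no common direction. Of 32 listed, 26 were tested, 14 lay above 0 and 12 below, and 0 passed. The median of their log2 fold changes was 0.02, against 0.00 for all genes. Groups did not overlap for 5 of the 26, 3 with BHB above and 2 below, against 10.9% of all genes. Before adjustment 3 of the 26 had a p under 0.05 (Pik3ip1 and Sesn1 below 0 and Irs2 above), against 5.59% of all genes, and adjusted p was far from the threshold for each. Pik3ip1, an inhibitor of PI3 kinase, stood at 9.54, 9.50 and 9.79 FPKM with BHB, against 10.9, 11.6 and 11.1 FPKM in controls, without overlap (log2 fold change -0.20, adjusted p in limma = 0.881). Sesn1, a sestrin that restrains mTORC1 under stress, stood at 9.24, 9.08 and 7.93 FPKM with BHB, against 9.79, 10.3 and 10.2 FPKM in controls, also without overlap (-0.19, adjusted p in limma = 0.881).

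Irs2, an insulin receptor substrate that was named after its values were seen, averaged 29.6 ± 0.224 FPKM with BHB and 27.1 ± 0.883 FPKM in controls (SD, n = 3 each; log2 fold change 0.12, adjusted p in limma = 0.881). Its BHB values all lay above its control values. The most abundant target, the autophagosome gene Map1lc3b, stood at 91.6 ± 5.56 FPKM with BHB and 93.4 ± 4.58 FPKM in controls (SD, n = 3 each). The targets Igfbp1, Pck1 and G6pc, known from liver, were listed at 0 in all 6 libraries.

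The list of FOXO regulators, which also holds Foxo6, had 9 of 25 tested members above 0 and 16 below, and without Foxo6 8 of 24 above and 16 below. Its median was -0.02 and 0 passed. Groups did not overlap for 5 of the 25, 1 with BHB above and 4 below, against 10.9% of all genes. The members included 14-3-3 proteins, which hold phosphorylated FOXO in the cytoplasm. Of these Ywhab stood at 123, 118 and 116 FPKM with BHB, against 133, 132 and 124 FPKM in controls, without overlap (log2 fold change -0.13, adjusted p in limma = 0.881). Ywhag, named after its values were seen, was separated the other way, at 72.8, 74.6 and 74.0 FPKM with BHB, against 69.3, 72.4 and 72.4 FPKM in controls (0.05, adjusted p in limma = 0.910), and the other 14-3-3 genes listed overlapped. Skp2, which marks FOXO1 for degradation, averaged 8.0 ± 0.449 FPKM with BHB and 8.95 ± 0.450 FPKM in controls, without overlap (SD, n = 3 each; -0.15, adjusted p in limma = 0.881). The most abundant member, Ywhae, stood at 703 ± 30.7 FPKM with BHB and 730.1 ± 49.4 FPKM in controls (SD, n = 3 each).

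Genes of zinc and other metal handling had 8 of 20 tested members above 0 and 12 below, with a median of -0.02, and 0 passed. Mtf1, the metal sensor itself, averaged 2.97 ± 0.0615 FPKM with BHB and 3.06 ± 0.104 FPKM in controls, and Slc30a1, a zinc exporter that MTF1 induces, averaged 10.5 ± 0.898 FPKM with BHB and 10.8 ± 0.406 FPKM in controls (SD, n = 3 each; both named after their values were seen). The smallest p belonged to Slc30a7, a Golgi zinc transporter, at 18.4 ± 0.310 FPKM with BHB and 17.3 ± 0.589 FPKM in controls (log2 fold change 0.08, adjusted p in limma = 0.890). Groups did not overlap for 1 of the 20, Slc30a7, with BHB above, against 10.9% of all genes. Slc39a14, an importer of zinc and manganese, had 0.23 (adjusted p in limma = 0.895). This value moved with single libraries, to 0.43 without control 3, 0.12 without control 1 and 0.13 without control 2. The abundant zinc importer gene Slc39a1 had 0.03 (adjusted p in limma = 0.941).

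Genes of copper and manganese handling, listed for the supply of the dismutases though not all serve it, had 7 of 11 tested members above 0. Their median was 0.03, and 0 passed. The median was 0.01 with libraries scaled to equal sums, 0.000239 without control 1 and 0.05 without control 3. Atox1, a copper chaperone, stood at 38.4, 38.9 and 33.9 FPKM with BHB, against 31.0, 36.6 and 30.6 FPKM in controls, with overlap (log2 fold change 0.18, adjusted p in limma = 0.881). Ccs, which loads copper into SOD1 and was named after its values were seen, had 0.11 (adjusted p in limma = 0.910). Slc31a1, the copper importer, had -0.04 (adjusted p in limma = 0.946).

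Peroxidases beside catalase and the thioredoxin, glutaredoxin and related enzymes that serve or repair them had 15 of 19 tested members above 0 and 4 below, with a median of 0.04, against 51.5% of all genes above 0, and 0 passed. Gpx1, the main cytosolic glutathione peroxidase, stood at 299.6, 314 and 285 FPKM with BHB, against 268, 295 and 264 FPKM in controls (log2 fold change 0.12, adjusted p in limma = 0.881). The groups overlapped at control 2. Gpx3, a secreted form, averaged 12.2 ± 2.45 FPKM with BHB and 14.5 ± 0.956 FPKM in controls (SD, n = 3 each; -0.24, adjusted p in limma = 0.887). Its log2 fold change was -0.12 without BHB 1 and -0.38 without BHB 3. The peroxiredoxin gene Prdx1, the most abundant, averaged 412 ± 22.5 FPKM with BHB and 407 ± 17.3 FPKM in controls.

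**Figure D5:**
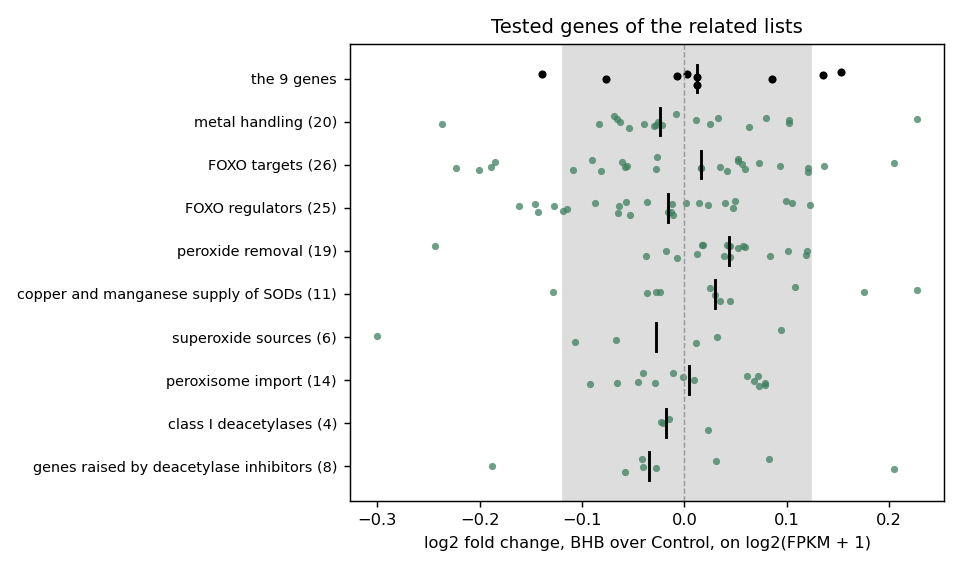
Log2 fold change of BHB over control for each tested gene of 9 lists of related genes (Foxo6 is among the FOXO regulators), with the number tested in brackets, and for the 9 genes of the report (black). Vertical bars are medians, and the grey band is the median ± SD of all genes tested. The list medians lie between -0.03 and 0.04, inside the band.

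The libraries were alike in their totals, with sums of 361730 to 367448 FPKM with BHB and 354565 to 365566 FPKM in controls, and pairwise correlations over the tested genes of 0.990 to 0.993. Astrocyte markers summed to 2615 to 2670 FPKM with BHB and 2237 to 2364 FPKM in controls, with all 8 above the minimum. Without Slc1a3 the other 7 summed to 2147 to 2224 FPKM with BHB and 2032 to 2167 FPKM in controls, and these ranges overlapped. Markers of fibroblasts and mural cells summed to 1391 to 1534 FPKM with BHB and 1326 to 1454 FPKM in controls, led by Acta2, while Dcn and Lum were under 1 FPKM. Microglia markers summed to 30.9 to 32.2 FPKM with BHB and 30.1 to 33.0 FPKM in controls, and neuron markers to 31.1 to 32.4 FPKM with BHB and 31.5 to 32.7 FPKM in controls. Oligodendrocyte lineage markers summed to 18.4 to 20.2 FPKM with BHB and 18.8 to 23.8 FPKM in controls. Among them Mog, which was not tested, ran from 0.220 to 5.47 FPKM, with its highest value in a control. Its means were 0.389 FPKM with BHB and 2.02 FPKM in controls. Ependymal markers summed to 29.5 to 32.5 FPKM with BHB and 32.1 to 35.0 FPKM in controls, nearly all of it Foxj1, while Ccdc153 was at 0.0339 to 0.306 FPKM and Tmem212 at 0. Endothelial markers summed to under 1 FPKM in each library, with Cldn5 at 0. The part of these cells in the values of the 9 genes was not tested.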

How the data were processed

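TruSeq libraries (kit version 2) were made from bead-selected poly(A) RNA, per the labels' protocols. The authors deposited 1 table of FPKM values, normalised to transcript length and library size by its column unit. The submitters' processing notes name bcl2fastq 2.0, HISAT2, StringTie and DESeq2 and the build rn6, without roles. Annotation, strand and sequencing depth were each not given in the sources used here. What 1 read is worth was estimated from ratios of low values (up to 0.1 FPKM) to control 1. It was 0.851 of that library's in control 3, and 0.957 to 1.01 in control 2 and the BHB libraries.

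Values were analysed as log2(FPKM + 1), which understates changes of genes near 1 FPKM. A gene entered when 3 or more of the 6 libraries reached 1 FPKM, and limma 3.58.1 (R 4.3.3) was applied with lmFit and eBayes with trend, two-sided, adjusted over all genes tested. The script was checked on simulated data. Related lists (16, with 186 symbols) were described by counts and medians. From each, genes passing, the 2 with the smallest p and the most abundant were named, while cell type lists are given as sums and 1 gene that the rule names is not reported here. The members and lists were chosen with earlier results of these data known. Alternatives changed the pseudocount, filter, trend, scaling, library weights, pairing and libraries used.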

Additional observations from a re-analysis of the deposited data

How the results depend on the processing

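None of the 9 genes passed in any of the 14 alternatives run, where the lowest adjusted p of a member was 0.685 (limma, Mt3 without control 2 or BHB 1 and Cat without BHB 1). The direction of Foxo3, Foxo4, Mt3, Sod2 and Cat was the same in each, with log2 fold changes of -0.216 to -0.0908, 0.0951 to 0.191, 0.108 to 0.193, 0.061 to 0.124 and -0.0937 to -0.0513. Foxo1 turned with quantile normalization (-0.00258), equal sums (-0.0133) and array weights (-0.00181), Mt2A with quantile normalization (-0.048) and equal sums (-0.00437), and Sod3 with equal sums (-0.00248). Prdx1 had -0.0176 with quantile normalization and Pex19 -0.00654 with equal sums. Leaving out a library gave log2 fold changes across 0, of -0.0182 to 0.0272 (Foxo1), -0.0234 to 0.0439 (Mt2A), -0.0345 to 0.0203 (Sod1), -0.118 to 0.116 (Sod3), -0.105 to 0.0266 (Mt1), -0.0114 to 0.234 (Foxo6), -0.0682 to 0.0226 (Map1lc3b), -0.0181 to 0.0604 (Prdx1), -0.0851 to 0.0222 (Slc31a1), -0.00887 to 0.0406 (Pex19), -0.0215 to 0.0486 (Hdac3) and -0.0428 to 0.0116 (Hdac2). The cause of these turns was not tested. Of 516 values of named genes 486 kept their direction and side of the threshold and 30 turned, and 205 of 210 list medians moved by less than the spread between libraries. The others were the copper and manganese list named above, the astrocyte list (-0.00556 with quantile normalization) and the ependymal list (0.0292 without a filter). Over all genes 7 passed, 4 without the eBayes trend, 2 with the replicate block and 5 to 10 without a library. Deviations of same-numbered libraries from their group means had correlations of -0.0899, 0.164 and -0.151. Of the controls 1 of 3 correlated best with its own number. With 3 libraries per group these values cannot decide whether libraries were paired, so the block is not read as a pairing. Before adjustment, Foxo4 also lay under 0.05 without BHB 3 or control 2, Sod2 without control 3 and Foxo3 without control 1. Depth is unknown, and the unadjusted limma intervals of the 9 genes reached 0.0978 to 0.307 to either side, so smaller changes were not resolved. These widths are not the limit of the adjusted test, which larger changes can also fail. Mt3 had a log2 fold change of 0.15 with an interval of 0.04 to 0.27, above 0, and did not pass (adjusted p in limma = 0.881).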

Other observations

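The class I deacetylases that BHB inhibits had small differences in RNA, with 1 of 4 above 0, 3 below and -0.02 as the median on the log2 scale. Hdac1 stood at 67.3 ± 0.716 FPKM with BHB and 68.4 ± 1.57 FPKM in controls, Hdac2 at 76.2 ± 2.92 FPKM with BHB and 76.9 ± 1.25 FPKM in controls, and Hdac3 at 29.9 ± 1.03 FPKM with BHB and 29.4 ± 1.61 FPKM in controls (SD, n = 3 each). By limma 0 of the 4 members passed, against 0.0566% of all genes. Before adjustment 0 reached 0.05, against 5.59% of all genes. With 4 genes, counts of 0 cannot be set apart from these shares. Genes that deacetylase inhibitors raise in many cell types had 3 of 8 tested members above 0 and 5 below, with a median log2 fold change of -0.03. The linker histone gene H1f0, named after its values were seen, averaged 42.5 ± 2.05 FPKM with BHB and 41.6 ± 2.01 FPKM in controls. Tspyl2, a nucleosome assembly gene, was lower in each BHB library, at 17.6, 17.8 and 18.7 FPKM, than in each control, at 22.0, 20.04 and 20.2 FPKM (-0.19), and did not pass (adjusted p in limma = 0.881). Gsn, which encodes gelsolin, had 0.08 and Clu, the most abundant, -0.04.

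Genes that make superoxide were mostly low, and 6 of 15 were tested, 3 above 0 and 3 below, with a median log2 fold change of -0.03 and 0 passing. Ncf1, the p47-phox subunit of the phagocyte oxidase, stood at 2.57, 2.44 and 2.43 FPKM with BHB, against 3.20, 3.79 and 2.91 FPKM in controls, without overlap (log2 fold change -0.30, unadjusted p = 0.0102, adjusted p in limma = 0.881). Rac1 averaged 180.0 ± 5.11 FPKM with BHB and 189 ± 2.46 FPKM in controls, also without overlap. Groups did not overlap for these 2 of the 6 tested genes, both with BHB below, against 10.9% of all genes. Genes of peroxisomal import, through which catalase reaches its compartment, had 7 of 14 above 0 and a median of 0.00. Pex5, the receptor of this route, averaged 7.47 ± 0.209 FPKM with BHB and 7.02 ± 0.111 FPKM in controls, without overlap (0.08). Groups did not overlap for 1 of the 14, Pex5, against 10.9% of all genes. The abundant Pex19 had 0.01, and 0 of the 14 passed.

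Cdkn1a, a cell cycle inhibitor counted in 2 of the lists and named after its values were seen, stood at 34.9, 41.3 and 42.7 FPKM with BHB, against 43.3, 45.0 and 20.3 FPKM in controls. Its log2 fold change of 0.20 came with a 95% interval of -0.40 to 0.81, and control 3 alone stood apart.

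The genes whose values ran most like those of Foxo3 over the 6 libraries, among 12364 compared, were Lta4h, Uri1 and Slc2a13 (Pearson r 0.994, 0.990 and 0.985, Spearman rho 0.943, 1.00 and 0.943). Without the 2 controls farthest from the median of Foxo3, control 2 and control 3, r was 0.979 to 0.986. For Mt2A they were LOC100912218, Mynn and Dnaja3 (r 0.991, 0.990 and 0.986, rho 1.00, 0.943 and 0.943), and without control 2 and control 3 r was 0.976, 0.900 and 0.714. With quantile normalization the r of Mt2A with these genes was 0.273, 0.234 and 0.172. They were picked as the highest of many over few libraries, so no p is given.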
